A study of Homo sapiens with 36 samples.

Results

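TMPRSS2, HPN, ST14 and PRSS8 encode serine proteases that sit on the outer face of the cell membrane, and SPINT1 and SPINT2 encode the membrane inhibitors that block such enzymes. They were taken by gene symbol from a table of 61805 genes, and all 6 passed the filter on low counts in every fit. Polyadenylated RNA was sequenced in 36 libraries of human prostate cancer cells, 3 in each of 12 groups, grown as LNCaP, which responds to androgen, or as its enzalutamide-resistant derivative 42D. Both cell lines included NT3, taken here as the control guide, and sgT33-5, taken as a guide targeting TRIM33 because the series title names that gene. LNCaP also included sgT33-5_MC_C2 (C2 here) and sgT33-5_MC_F2 (F2 here). The labels explain neither of these names and do not say whether C2 and F2 grew from single cells. All lines spent 3 days in 5% charcoal-stripped serum before 6 h with DMSO or with R1881, a synthetic androgen, at 5 nM, and nothing in the labels tells whether a group's 3 replicates were grown apart, so the p-values cover the scatter among these libraries only.

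These enzymes are made as inactive precursors and cut proteins at the cell surface, among them growth factors, receptors, matrix proteins and one another's precursors. TMPRSS2 is a transcriptional target of the androgen receptor in the luminal cells of the prostate, and in many prostate tumours its promoter is fused to an ETS factor gene. Hepsin (HPN) and matriptase (ST14) are anchored, like TMPRSS2, by a single segment near the amino end, while prostasin (PRSS8) is held by a lipid anchor and takes part with matriptase in an activation cascade. HAI-1 (SPINT1) and HAI-2 (SPINT2) carry Kunitz domains, compact folds that plug the active site of a serine protease.

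Libraries held 13900744 to 19793268 counts. Levels are given as CPM, counts scaled to the size of each library. TRIM33, the targeted gene, lay lower with the guide than with NT3 throughout, at 34.2 to 66.3 CPM in the LNCaP guide libraries against 89.0 to 128.7 in NT3, and 54.8 to 74.6 in 42D sgT33-5 against 79.4 to 108.7. Luminal keratins were present in every library, with KRT8 at 223.2 to 515.8 CPM and KRT18 at 249.8 to 469.2, as was EPCAM at 99.4 to 204.7, and the 3 basal markers together reached at most 0.614 CPM. The 2 sgT33-5 libraries of LNCaP with the lowest mitochondrial share took 2.14% or more of their counts from mitochondrial genes, against 4.16% to 6.66% in the other 22 LNCaP libraries.

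By the annotation deposited with the counts (GRCh38), TMPRSS2 (ENSG00000184012) lies on the minus strand of chromosome 21 at 41464300 to 41531116. HPN (ENSG00000105707) lies at 35040506 to 35066573 and SPINT2 (ENSG00000167642) at 38244035 to 38292615 of chromosome 19. ST14 (ENSG00000149418) lies at 130159782 to 130210362 of chromosome 11, PRSS8 (ENSG00000052344) at 31131433 to 31135727 of chromosome 16 and SPINT1 (ENSG00000166145) at 40844018 to 40858207 of chromosome 15. All are protein-coding genes, and their values are counts over the whole gene, so isoforms were not told apart. The end of MX1 overlaps that of TMPRSS2, at a mean of 4 CPM, and the antisense RNA SPINT1-AS1 overlaps SPINT1, at a mean of 9.66 CPM. Whether the counting used the strand is not given in the sources used here, so some reads in these overlaps could have been assigned to either gene.

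The RefSeq promoter table (GRCh38.p14) held windows for HPN and SPINT1, and the bases before the annotated start are printed for these, 1 protease and 1 inhibitor, as the start regions of members for which no R1881 response was called in LNCaP. Capitals mark the GC box GGGCGG or its reverse complement CCGCCC, and each window is read 5′ to 3′ on the gene's plus strand. The HPN window, chr19:35041471-35041720, starts inside the gene as the deposited annotation draws it, and the SPINT1 window, chr15:40843798-40844017, ends just before the gene.
HPN: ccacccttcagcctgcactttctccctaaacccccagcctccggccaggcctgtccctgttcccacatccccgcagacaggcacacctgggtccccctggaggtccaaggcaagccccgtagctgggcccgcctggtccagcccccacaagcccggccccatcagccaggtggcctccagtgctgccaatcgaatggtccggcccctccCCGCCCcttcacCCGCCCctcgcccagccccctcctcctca
SPINT1: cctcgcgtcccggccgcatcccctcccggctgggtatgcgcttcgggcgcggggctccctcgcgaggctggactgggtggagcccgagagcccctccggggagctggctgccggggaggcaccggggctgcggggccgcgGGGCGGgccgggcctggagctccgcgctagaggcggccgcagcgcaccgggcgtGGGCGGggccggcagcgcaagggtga
The HPN window is 70.4% G or C with 10 CpG pairs, and the SPINT1 window is 80.9% G or C with 30. Each holds 2 GC boxes and no match on either strand to AGAACA, the core hexamer that the androgen receptor binds, or to GTAAACA, the forkhead core. The SPINT1 window was shortened to end before the deposited gene start, and over its full 250 bases it holds 3 GC boxes. A further SPINT1 window, starting inside the gene, is not printed and holds 1 match to AGAACA and no GC box. Among all 35116 windows of 250 bases before a start, 42.6% held a GC box and 12.4% held AGAACA or its reverse complement TGTTCT, and 2.98% held GTAAACA or TGTTTAC. These matches describe letters only.

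TMPRSS2 was the member whose RNA varied most over the groups. In such bulk libraries fewer cells with the RNA and less of it per cell cannot be told apart. Its group means ran from 31.6 to 848.8 CPM, a 26.9-fold span, while the spans of HPN, ST14, PRSS8, SPINT1 and SPINT2 were 1.4, 1.42, 1.48, 1.25 and 2.09. With DMSO, TMPRSS2 rose in the order C2 (31.6), LNCaP sgT33-5 (48.2), F2 (59.5), LNCaP NT3 (75.8), 42D sgT33-5 (152.6) and 42D NT3 (161.9 CPM). With R1881 the order was C2 (198.5), 42D sgT33-5 (521.7), LNCaP sgT33-5 (549.4), 42D NT3 (606.9), F2 (745.0) and LNCaP NT3 (848.8 CPM). Of the 11 neighbouring pairs in the order of all 12 groups, 7 had libraries that did not overlap and 4 did: the 2 groups of 42D with DMSO, LNCaP sgT33-5 with R1881 with each 42D group with R1881, and NT3 with F2 in LNCaP with R1881. For HPN, PRSS8 and SPINT1, all 11 neighbouring pairs overlapped.

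**Figure D1:**
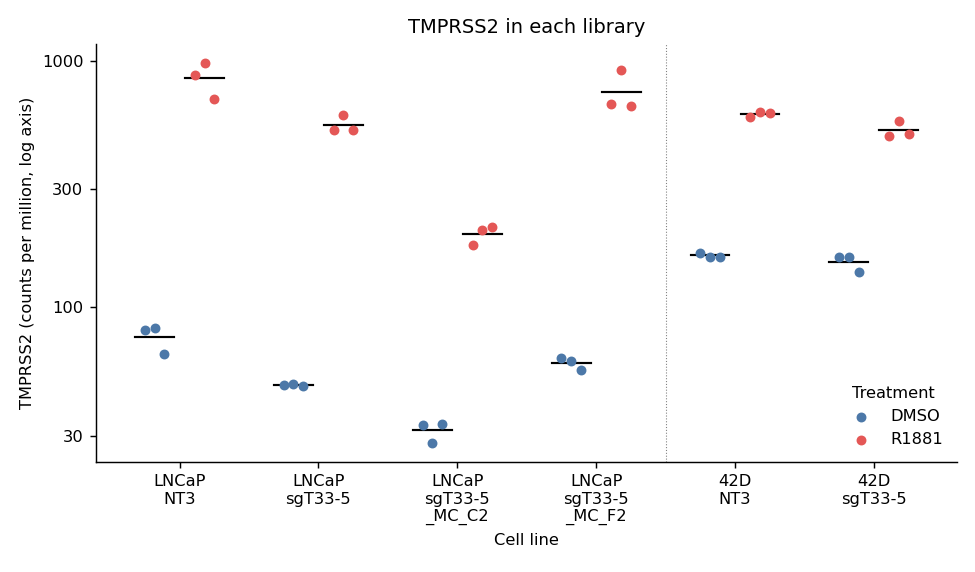
TMPRSS2 in CPM (log axis) in each of the 36 libraries, by line on the horizontal axis and by treatment in colour, with 3 libraries a group and black bars at the group means. R1881 libraries lie above the DMSO libraries of their line throughout, the lowest R1881 group is C2 at a mean of 198.5, and the highest DMSO groups are those of 42D.

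R1881 raised TMPRSS2 in all 6 lines, and in the 4 LNCaP lines no other member was called. In LNCaP NT3, TMPRSS2 measured 80.9, 81.9 and 64.7 CPM with DMSO and 871.9, 977.5 and 696.9 with R1881. The lowest R1881 library lay far above the highest DMSO library, and the fold change was 11.1 (log2 3.48, SE 0.143, adjusted p = 7.46e-13 by edgeR's quasi-likelihood test with Benjamini-Hochberg adjustment, used for every adjusted p below). In LNCaP sgT33-5 it measured 48.0, 48.6 and 47.9 CPM with DMSO and 523.9, 602.7 and 521.5 with R1881 (log2 3.50, SE 0.146, adjusted p = 1.31e-12). Both treatments of that line sat lower than the same treatment of NT3, and the ratio between them was 11.3. In F2 it measured 62.2, 60.6 and 55.6 CPM with DMSO and 664.2, 919.4 and 651.4 with R1881, a 12.4-fold rise (log2 3.64, SE 0.145, adjusted p = 7.34e-13). These R1881 libraries overlapped those of NT3. In C2 it measured 33.2, 28.1 and 33.5 CPM with DMSO and 179.2, 205.8 and 210.5 with R1881, a 6.25-fold rise (log2 2.65, SE 0.145, adjusted p = 2.19e-10). C2 was the one LNCaP line in which TMPRSS2 with R1881 stayed below every R1881 library of the other lines.

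The call on TMPRSS2 made 1 of 6 members called in each LNCaP line, and R1881 called 13.2% of all tested genes in NT3, 12.5% of them in sgT33-5, 5.66% in C2 and 10.4% in F2. By DESeq2 too TMPRSS2 was the 1 member called. An unadjusted p below 0.05 was found for 3, 3, 2 and 4 members in NT3, sgT33-5, C2 and F2, TMPRSS2 among them. The median log2 change of the 6 members was -0.13 for NT3, 0.086 for sgT33-5, -0.12 for C2 and -0.15 for F2, against -0.011 to -0.001 over all genes. HPN was called in no line, with -0.19 (SE 0.0925, adjusted p = 0.213) in NT3, -0.23 (adjusted p = 0.19) in C2, -0.20 (adjusted p = 0.2) in F2 and 0.19 (SE 0.0921, adjusted p = 0.191) in sgT33-5. In sgT33-5 its R1881 libraries lay above its DMSO libraries, and in C2 below them. ST14 gave -0.03 in NT3, with a 95% interval of -0.16 to 0.10, and 0.17 in sgT33-5 (adjusted p = 0.0961). PRSS8 gave -0.19, 0.00, -0.26 and -0.28 in NT3, sgT33-5, C2 and F2. SPINT1 gave values from -0.17 to -0.10 and SPINT2 from -0.12 to -0.06 in the same 4 lines, all with adjusted p above 0.05. With 1 library left out at a time, ST14 ran from -0.14 to -0.044 in C2 and from -0.19 to -0.057 in F2, never called. Every R1881 library lay below every DMSO library for SPINT1 in NT3, SPINT2 in C2 and F2, and ST14 in F2. In the other lines the libraries of ST14, PRSS8, SPINT1 and SPINT2 overlapped. In F2, where same-numbered replicates deviated together, the fit with the replicate number as a block called PRSS8 (-0.30, adjusted p = 0.00679) and SPINT1 (-0.17, adjusted p = 0.00368) as lower.

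**Figure D2:**
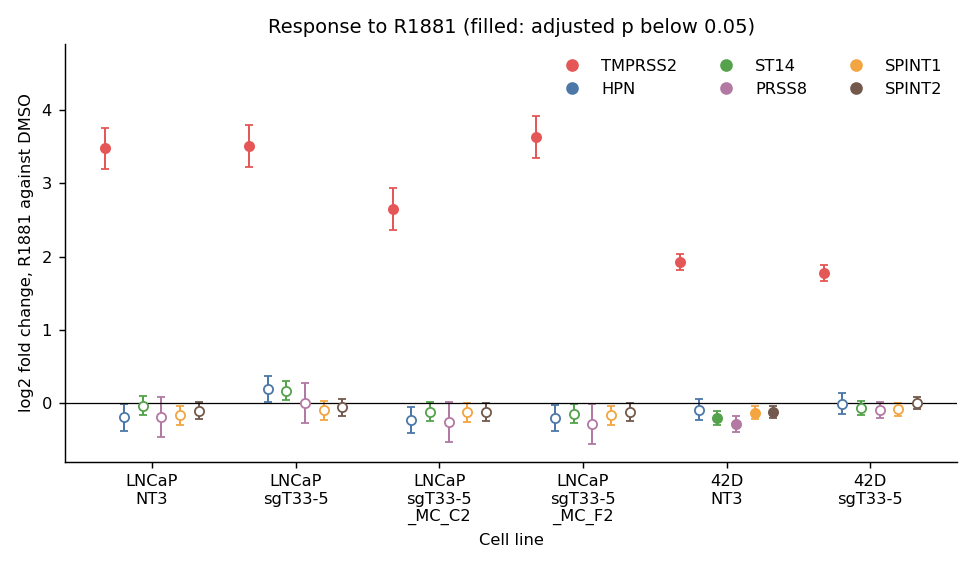
Log2 fold change of R1881 against DMSO (vertical axis) for the 6 members in each line, 3 libraries against 3, with bars for the 95% interval and filled points for adjusted p below 0.05. TMPRSS2 lies between 1.78 and 3.64 in all lines, and the other members lie between -0.28 and 0.19.

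In 42D R1881 raised TMPRSS2 by 3.8-fold in NT3 and 3.43-fold in sgT33-5, and in NT3 ST14, PRSS8, SPINT1 and SPINT2 were called lower. TMPRSS2 measured 166.3, 160.2 and 159.3 CPM with DMSO and 589.0, 618.2 and 613.5 with R1881 in 42D NT3, a 3.8-fold rise (log2 1.93, SE 0.06, adjusted p = 2.7e-15). In 42D sgT33-5 it measured 159.8, 159.4 and 138.6 CPM with DMSO and 491.8, 570.1 and 503.3 with R1881, a 3.43-fold rise (log2 1.78, SE 0.0601, adjusted p = 7.77e-15). The DMSO libraries of both 42D lines already lay above those of all LNCaP lines. In 42D NT3, where 25.3% of all genes were called, 1 member was called higher and 4 lower. PRSS8 fell from 93.6, 91.6 and 101.7 CPM to 77.8, 76.3 and 78.4 (log2 -0.28, SE 0.0558, adjusted p = 0.00049). ST14 fell from 164.1, 175.4 and 181.2 CPM to 148.3, 146.7 and 149.8 (log2 -0.21, SE 0.0488, adjusted p = 0.00273). For both proteases every R1881 library lay below every DMSO library. SPINT1 (log2 -0.13, adjusted p = 0.0369) and SPINT2 (log2 -0.12, adjusted p = 0.0469) were called as well. Falls of like size in PRSS8, SPINT1 and SPINT2 in some LNCaP lines, given above, were not called. The SPINT1 call ended without replicate 2 or 3 of either group (range -0.17 to -0.09), and with DESeq2 (adjusted p = 0.0506). The SPINT2 call ended without any of 5 of the 6 libraries, all but R1881 replicate 1 (range -0.15 to -0.09), and with DESeq2 (adjusted p = 0.0728). In 42D sgT33-5, where 27.3% of all genes were called, TMPRSS2 was the 1 member called, and ST14 (-0.07), PRSS8 (-0.09) and SPINT1 (-0.09) gave adjusted p of 0.315, 0.239 and 0.165. The difference between the responses of the 42D lines was not called for any member (0 of 6 by edgeR and by DESeq2, with 0.123% of all genes called), and PRSS8, with 0.19 and a 95% interval of 0.036 to 0.345, was the 1 member with an unadjusted p below 0.05.

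**Figure D3:**
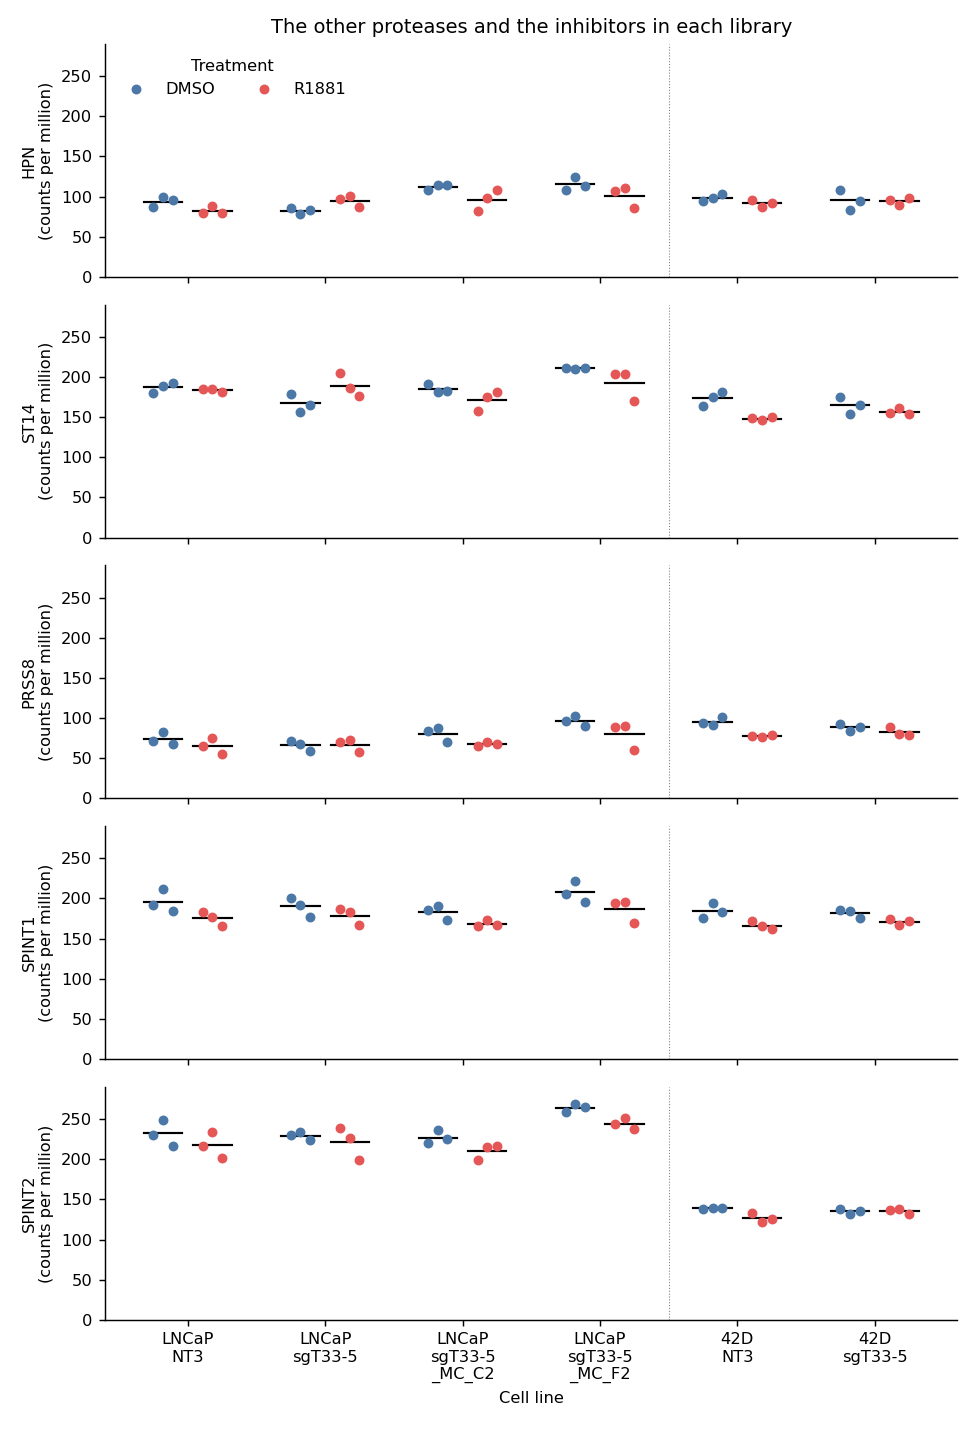
CPM of HPN, ST14, PRSS8, SPINT1 and SPINT2 in each library, by line and treatment, with 3 libraries a group, black bars at the group means and all vertical axes from 0. SPINT2 lies at 121.4 to 139.6 in 42D and at 199.2 or above in LNCaP, while the group means of the other members span 1.25-fold (SPINT1) to 1.48-fold (PRSS8).

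The response of TMPRSS2 was set against that of NT3 by an interaction term in the LNCaP fit, and these comparisons share the NT3 libraries. The response of sgT33-5 differed from that of NT3 by 0.03 on the log2 scale, with a 95% interval of -0.35 to 0.40, and that of F2 by 0.16, with an interval of -0.21 to 0.53. No member was called in either by edgeR or by DESeq2, and HPN and ST14 in sgT33-5 and none in F2 had an unadjusted p below 0.05. No gene was called at all (0%), although 1206 genes for sgT33-5 and 454 for F2 had an unadjusted p below 0.05 in edgeR. DESeq2 called 0 and 6 genes there. The response of C2 was 0.83 lower (SE 0.195, adjusted p = 0.0587), which missed the threshold in a comparison where 0.689% of genes were called and 0 of 6 members were. DESeq2 called it (-0.82, adjusted p = 9.63e-04), and so did the main test without NT3 R1881 replicate 3 (-0.93, adjusted p = 0.0159), the lowest R1881 library of NT3.

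In LNCaP, sgT33-5 and C2 held less TMPRSS2 than NT3, by the larger fold in C2, and F2 was not called, while HPN was called higher in C2 with DMSO and in F2 at both treatments. In sgT33-5 TMPRSS2 was 1.57-fold lower with DMSO (log2 -0.65, SE 0.142, adjusted p = 0.0232) and 1.54-fold lower with R1881 (log2 -0.62, SE 0.128, adjusted p = 0.01), and in each treatment the highest sgT33-5 library lay below the lowest NT3 library. It was the 1 member called in both, where 1.4% and 3.04% of all genes were called. Without the 2 libraries of low mitochondrial share these values were -0.65 (adjusted p = 0.129) and -0.59 (adjusted p = 0.0822), and the part that share plays was not tested. The DMSO call also ended without NT3 replicate 1 or 2 or any sgT33-5 library (-0.75 to -0.60), and the R1881 call ended without NT3 replicate 1 or 2 or sgT33-5 replicate 1 (-0.74 to -0.51).

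In C2 TMPRSS2 was 2.39-fold lower than in NT3 with DMSO (log2 -1.26, SE 0.146, adjusted p = 4.11e-06) and 4.26-fold lower with R1881 (log2 -2.09, SE 0.133, adjusted p = 6.93e-10), and these calls held under every alternative run. Beside it HPN was called with DMSO, at 108.0, 114.4 and 113.8 CPM against 86.4, 99.0 and 95.8 in NT3 (log2 0.26, SE 0.091, adjusted p = 0.0458). All C2 libraries lay above those of NT3, but the call ended when any of the 6 libraries was left out (0.20 to 0.30), with DESeq2 (adjusted p = 0.0504) and with RLE size factors (adjusted p = 0.0591). With R1881 HPN gave 0.23 (adjusted p = 0.0763). Thus 2 of 6 members were called with DMSO and 1 of 6 with R1881, where 18.2% and 23% of all genes were called, and the median of the members was -0.018 and -0.046 against 0.004 and 0 over all genes.

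In F2 TMPRSS2 was not called against NT3, with -0.35 in DMSO (95% interval -0.62 to -0.08, adjusted p = 0.0975) and -0.19 in R1881 (95% interval -0.44 to 0.06). With DMSO, every F2 library (55.6 to 62.2 CPM) lay below every NT3 library (64.7 to 81.9), and DESeq2 called the difference (adjusted p = 0.0389). HPN rose in F2, to 108.0, 123.9 and 113.3 CPM with DMSO (log2 0.30, SE 0.0909, adjusted p = 0.0252) and to 107.3, 110.2 and 85.6 with R1881 (log2 0.29, SE 0.0919, adjusted p = 0.0347). The R1881 libraries overlapped those of NT3 (79.0 to 88.4), and this call ended without NT3 replicate 1 or 3 or F2 replicate 1 or 2 (0.23 to 0.41) and in a fit of only these groups (adjusted p = 0.0737). The DMSO call ended without NT3 replicate 1 or F2 replicate 2 or 3 (0.24 to 0.34). SPINT2 was called with DMSO at 258.9, 268.2 and 264.8 CPM against 230.6, 248.7 and 217.0 (log2 0.19, SE 0.0607, adjusted p = 0.0331), a call that ended without 5 of the 6 libraries, all but NT3 replicate 2 (0.14 to 0.24). Replicate numbers paired these DMSO libraries, and with the replicate block ST14 (0.18, adjusted p = 0.041) and PRSS8 (0.39, adjusted p = 0.000593) were called too. Against backgrounds of 16.7% with DMSO and 13.4% with R1881, 2 and 1 of 6 members were called, all of them higher.

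**Figure D4:**
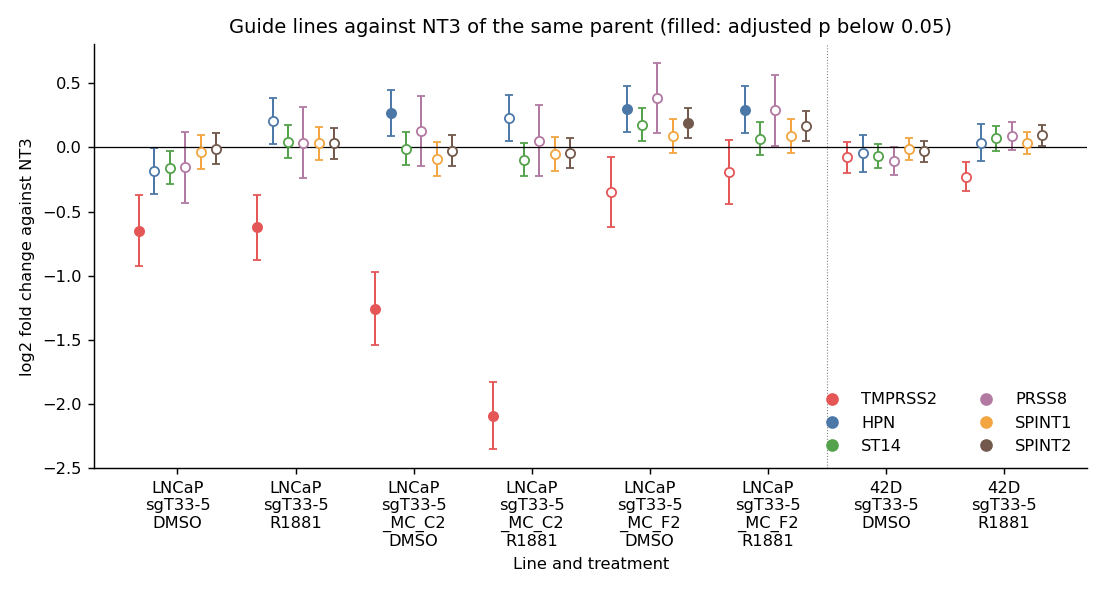
Log2 fold change of each guide line against NT3 of the same cells (vertical axis) for the 6 members at either treatment, 3 libraries against 3, with bars for the 95% interval and filled points for adjusted p below 0.05. TMPRSS2 is lowest in C2 (-1.26 and -2.09), and in 42D sgT33-5 it is at -0.08 and -0.23.

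C2 and F2 were set against each other directly. TMPRSS2 was 1.88-fold lower in C2 with DMSO (log2 -0.91, SE 0.146, adjusted p = 0.000156) and 3.73-fold lower with R1881 (log2 -1.90, SE 0.132, adjusted p = 3.19e-09). SPINT2 was also lower in C2, at 219.7, 236.6 and 224.6 CPM with DMSO (log2 -0.21, adjusted p = 0.0135) and 199.2, 215.2 and 216.1 with R1881 (log2 -0.21, adjusted p = 0.0139), in each case with every C2 library below every F2 library. The calls ended without C2 replicate 1 with DMSO, and without C2 replicate 1 or F2 replicate 2 with R1881. ST14 was called with DMSO (log2 -0.19, adjusted p = 0.0466), a call that ended whichever library was left out (-0.21 to -0.19). In these DMSO libraries, where replicate numbers paired the samples, the replicate block added PRSS8 (-0.26, adjusted p = 0.0101) and SPINT1 (-0.18, adjusted p = 0.00132). In all, 3 members were called lower with DMSO and 2 with R1881, where 18.1% and 21% of all genes were called.

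In 42D the guide line did not differ from NT3 in any member by the main test (0 of 6 in each treatment by edgeR, with 1.13% and 0.513% of all genes called). An unadjusted p below 0.05 was found for none with DMSO and for TMPRSS2 and SPINT2 with R1881. TMPRSS2 gave -0.08 with DMSO (95% interval -0.20 to 0.04) and -0.23 with R1881 (SE 0.0571, adjusted p = 0.106). With R1881 its libraries did not overlap, at 491.8 to 570.1 CPM against 589.0 to 618.2 in NT3. Replicate numbers paired these libraries, and with the replicate block the difference was called (-0.23, adjusted p = 0.0248), as it was with DESeq2 (-0.22, adjusted p = 0.0464) and without sgT33-5 replicate 2 (-0.29, adjusted p = 0.0186). Whether the guide line's difference in TMPRSS2 was smaller in 42D than in LNCaP was tested over all 36 libraries. The difference between the cell lines was 0.57 (SE 0.174, adjusted p = 0.137) with DMSO and 0.41 (SE 0.161, adjusted p = 0.291) with R1881, where 0.797% and 1.32% of genes and 0 of 6 members were called, although TMPRSS2 had an unadjusted p below 0.05 in both. DESeq2 called it with DMSO (0.55, adjusted p = 0.0419).

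Between the NT3 lines of 42D and LNCaP, TMPRSS2 changed sides with treatment and SPINT2 did not. In NT3 with DMSO TMPRSS2 was 2.14-fold higher in 42D than in LNCaP (log2 1.09, SE 0.123, adjusted p = 9.99e-09), and with R1881 1.4-fold lower (log2 -0.48, SE 0.114, adjusted p = 0.000498). The libraries did not overlap in either treatment. The difference between the 2 responses was -1.58 (SE 0.167, adjusted p = 2.8e-07), and TMPRSS2 was the 1 member of 6 called in that test, where 3.85% of genes were called. SPINT2 measured 138.4, 139.6 and 139.0 CPM in 42D with DMSO against 230.6, 248.7 and 217.0 in LNCaP (log2 -0.74, SE 0.0556, adjusted p = 2.35e-14), and was as much lower with R1881 (log2 -0.78). PRSS8 was higher in 42D with DMSO (log2 0.37, SE 0.12, adjusted p = 0.00817), and with R1881 it gave 0.25 (adjusted p = 0.0739). ST14 was lower in 42D with R1881 (log2 -0.31, SE 0.0615, adjusted p = 3.52e-05), and with DMSO it gave -0.11 (adjusted p = 0.118). HPN and SPINT1 were called in neither. These cell lines differed in most genes, so that 3 of 6 members called in each treatment stand beside 68.1% and 68.9% of all genes. Summed neuroendocrine markers, nearly all NCAM1, also differed, at 25.2 to 44.3 CPM in 42D and 1.38 to 2.42 in LNCaP, and endothelial markers, mostly VWF, lay at 0.418 to 1.67 and 7.93 to 22.8. Their part in these differences was not tested.

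Levels were compared between members only after division by the length of the annotated exons, 6117 bases for TMPRSS2, 3380 for HPN, 4350 for ST14, 3010 for PRSS8, 3542 for SPINT1 and 5199 for SPINT2 (GENCODE v29). On that scale TMPRSS2 made up 11.5% ± 1.38 (SD, n = 3) of the summed 4 proteases in LNCaP NT3 with DMSO and 60.9% ± 2.86 with R1881. In C2 the share went from 4.81% ± 0.536 to 26.5% ± 0.171, the lowest mean share of any line with R1881. In F2 it went from 7.82% to 54.6%, in LNCaP sgT33-5 from 8.51% to 49.0% and in 42D sgT33-5 from 20.8% to 48.2%. In 42D NT3 it went from 20.8% ± 1.1 to 53.3% ± 1.09. The ratio of the 4 proteases to the 2 inhibitors, per length, was 1.08 ± 0.0426 in LNCaP NT3 with DMSO and 2.48 ± 0.183 with R1881, and 1.13 and 1.39 in C2. It was 0.947 and 1.97 in LNCaP sgT33-5, and 1.14 and 2.23 in F2. In 42D it was 1.62 and 2.61 in NT3, the highest mean at each treatment, and 1.55 and 2.38 in sgT33-5. Without TMPRSS2 the ratio of the other 3 proteases to the inhibitors lay between 0.866 and 1.28 over the 12 group means, with the top value in 42D NT3 with DMSO. The means of the 42D groups were 1.22 to 1.28 and those of the LNCaP groups 0.866 to 1.07. These are ratios of RNA, and the share follows from the TMPRSS2 values above.

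**Figure D5:**
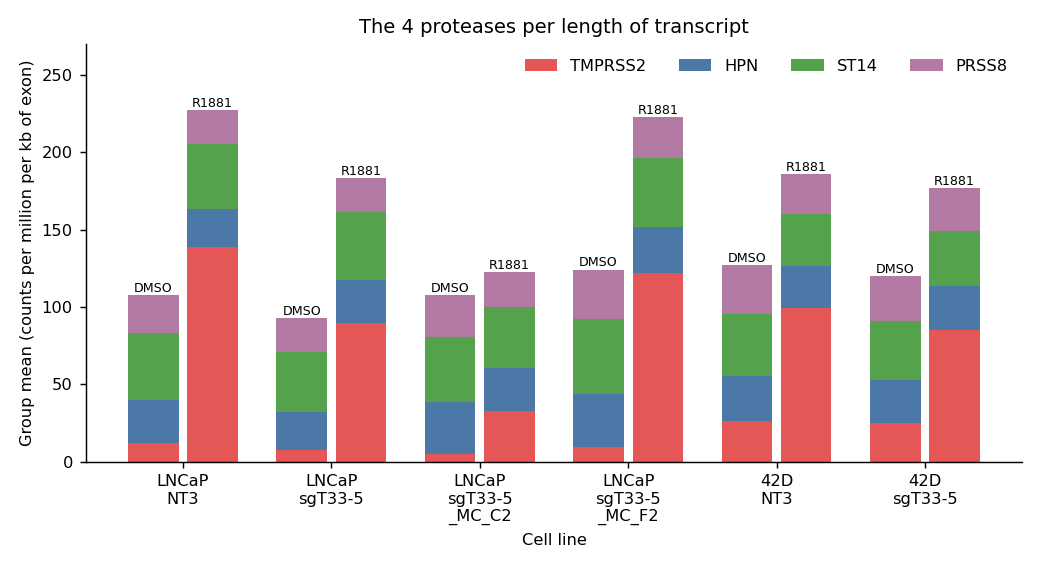
Group means of the 4 proteases in CPM per kilobase of exon (vertical axis, stacked from 0), for DMSO and R1881 in each line. The TMPRSS2 part grows with R1881 in every line, from 11.5% to 60.9% of the stack in LNCaP NT3 and from 4.81% to 26.5% in C2.

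Other genes of the system were followed by fixed lists. Of 14 other type II transmembrane serine proteases, 5 were expressed enough to test in LNCaP (CORIN, TMPRSS4, TMPRSS6, TMPRSS11E and TMPRSS13) and 3 in 42D, with group means of at most 11.1 CPM. With R1881 in LNCaP NT3, 1 of 5 rose (TMPRSS11E, log2 0.63, from 1.57 to 2.45 CPM), a call that DESeq2 did not make and that ended without DMSO replicate 1 or 3 or R1881 replicate 2 or 3. In the other 3 LNCaP lines 0 of 5 were called by edgeR or DESeq2, with an unadjusted p below 0.05 for 1, 0 and 1 of them. Over all genes R1881 called 13.2% in NT3, and 12.5%, 5.66% and 10.4% in sgT33-5, C2 and F2. In C2 with DMSO 3 of 5 were higher than in NT3, TMPRSS6 (log2 1.29), TMPRSS11E (log2 0.88) and TMPRSS13 (log2 0.52, from 7.76 to 11.1 CPM), and with R1881 1 of 5, TMPRSS13 (log2 0.49). The TMPRSS6 call ended without NT3 replicate 3. The median of the 5 was 0.52 and 0.387 in these comparisons, against 0.004 and 0 over all genes, of which 18.2% and 23% were called. In F2 with DMSO 2 of 5 were higher, TMPRSS13 (log2 0.43) and TMPRSS11E (0.60), calls that ended without 2 and 6 of the 6 libraries. Over all genes 16.7% were called there. PRSS27, the 1 tested of 6 other anchored proteases, was lower in C2 with DMSO (log2 -1.41, from 1.76 to 0.657 CPM). With R1881 PRSS27 gave -0.67 in C2 against NT3 and was not called, although its unadjusted p by edgeR was below 0.05.

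Among 18 substrates and receptors, 11 were tested within each cell line, and F2RL1 and MET were called with R1881 in all 6 lines. F2RL1, the protease-activated receptor PAR2, rose, from 59.4 ± 5.36 to 120.7 ± 15.7 CPM in LNCaP NT3 (log2 1.02, SE 0.0739) and from 43.2 ± 2.89 to 94.7 ± 4.6 in 42D NT3 (log2 1.15, SE 0.0621), and by 0.70 to 1.28 over the 6 lines. MET, the receptor of hepatocyte growth factor, which hepsin and matriptase activate, fell in all 6, from 23.6 ± 1.8 to 15.1 ± 1.01 CPM in LNCaP NT3 (log2 -0.64, SE 0.0985) and from 7.97 ± 0.86 to 3.5 ± 0.637 in 42D NT3 (log2 -1.16, SE 0.154). The call in F2 (log2 -0.39, adjusted p = 0.0153) ended without DMSO replicate 1 or 2 or R1881 replicate 2 or 3. LAMA3, a chain of the matrix protein laminin-332, rose in the 4 LNCaP lines (log2 0.74 to 0.87), from 147.3 ± 10.1 to 259.6 ± 13.2 CPM in NT3, and lay at 1.23 to 1.87 CPM in the 42D groups. Thus 2 rose and 1 fell of 11 in each LNCaP line, 3 rose and 2 fell in 42D NT3 (CDCP1, a surface glycoprotein, and SCNN1A, a sodium channel subunit, among them at 0.21 and -0.22, and MST1 at 0.49), and 2 rose and 2 fell in 42D sgT33-5. The list medians lay between -0.09 and 0.032, and those of all genes between -0.015 and -0.001. R1881 called 5.66% to 13.2% of all genes in the LNCaP lines, and 25.3% and 27.3% in 42D NT3 and 42D sgT33-5.

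Against NT3, LAMA3 was lower in C2 (log2 -0.74 with DMSO and -0.68 with R1881) and F2 (-0.51 and -0.58), and MET was lower in F2 (-0.77 and -0.51). F2RL1 was lower in C2 with R1881 (log2 -0.44, adjusted p = 4.2e-05) and higher in sgT33-5 (0.32 with DMSO and 0.30 with R1881), where both calls ended without the 2 libraries of low mitochondrial share. CDCP1 was higher in C2 (0.23, and 0.17 with R1881, which ended without NT3 replicate 2) and in F2 with DMSO (0.21), and CLDN7, a tight junction protein, was lower in C2 with DMSO (-0.28). In all, 1 rose and 2 fell of 11 in C2 at either treatment, where 18.2% (DMSO) and 23% (R1881) of all genes were called. In F2 with DMSO 1 rose and 3 fell, where 16.7% of all genes were called. The third there was SCNN1G, a sodium channel subunit at 1.4 CPM in NT3 and 0.469 in F2, named after its values were seen. In 42D sgT33-5 0 of 11 were called against NT3 in either treatment by edgeR or DESeq2, where edgeR called 1.13% and 0.513% of all genes. An unadjusted p below 0.05 was found for 3 with DMSO and 2 with R1881.

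Of 8 other Kunitz-domain proteins 3 were tested in LNCaP. With R1881, which called 13.2%, 5.66% and 10.4% of all genes in NT3, C2 and F2, 1 of 3 rose in each of these lines. It was TFPI, a secreted and surface-bound Kunitz inhibitor of coagulation, with log2 changes of 0.46, 0.57 and 0.86, going from 171.6 ± 19.8 to 237.0 ± 23.2 CPM in NT3. TFPI was lower than NT3 in C2 (log2 -1.39 with DMSO and -1.28 with R1881) and F2 (-2.86 and -2.46). Its level in F2 with DMSO was 23.5 ± 3.27 CPM, and the 42D groups held 0.263 to 0.581 CPM. The rise in NT3 ended without DMSO replicate 1 or 3 or R1881 replicate 2, and that in C2 without DMSO replicate 1 or R1881 replicate 2. APP, the amyloid precursor protein, whose longer forms carry a Kunitz domain, was lower in F2 (log2 -0.57 at both treatments). Thus 2 of 3 fell in F2, where 16.7% (DMSO) and 13.4% (R1881) of all genes were called. APP was higher in 42D sgT33-5 (0.24 with DMSO, which ended without sgT33-5 replicate 2, and 0.26 with R1881). Of the 17 serpins 5 were tested in LNCaP and 7 in 42D. SERPINE2, an inhibitor of plasminogen activators and of prostasin, rose with R1881 in LNCaP NT3 (log2 0.63), LNCaP sgT33-5 (0.58), 42D NT3 (0.71) and 42D sgT33-5 (0.67) from levels of 3.94 to 6.44 CPM. The NT3 call ended without DMSO replicate 3, and the LNCaP sgT33-5 call without DMSO replicate 1 or R1881 replicate 2. SERPINE2 was lower than NT3 in C2 (-1.07 and -1.45) and F2 (-0.54 and -0.75), the first of which ended without NT3 replicate 1 or 2 or F2 replicate 3. In 42D NT3, SERPINH1, a collagen chaperone, rose (0.30) and SERPINB5 fell (-0.40), and SERPINH1 rose in 42D sgT33-5 (0.41). These calls in 42D NT3 ended without 5 and 4 of the 6 libraries.

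Over the 12 groups, the genes whose mean log2 CPM followed TMPRSS2 most closely, among 11196 genes, included TRPM8 (Pearson r = 0.973), CENPN (0.973), FAM174B (0.967) and DEGS1 (0.964). TRPM8 ran from 0.539 to 19.4 CPM and CENPN from 45 to 250 CPM. Over the 8 LNCaP groups alone the closest were PPFIBP2 (0.998), PSMD8 (0.996), RHOU (0.995), CAMKK2 (0.995) and TBC1D1 (0.994). These points share lines and treatments, and the values describe likeness only. HPN was closest to MGAT4B (0.951), ST14 to ECH1 (0.945), PRSS8 to TAPBP (0.964), SPINT1 to VASN (0.942) and SPINT2 to BAIAP2 (0.996), the last over groups that fall into a low 42D set and a higher LNCaP set. Among the members themselves TMPRSS2 ran against SPINT1 (r = -0.624 over 12 groups), ST14 ran with SPINT2 (0.825) and SPINT1 (0.731), and SPINT1 with SPINT2 (0.581, and 0.901 over the 8 LNCaP groups). HPN ran with PRSS8 (0.67, and 0.871 over the 8 LNCaP groups). PRSS8 and SPINT2 gave -0.364 over 12 groups and 0.87 over the 8 LNCaP groups, so these values depend on whether 42D is included.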

How the data were processed

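The table the authors deposited holds raw read counts per gene, whole numbers in each of the 36 libraries, and no counts in rows without a gene identifier or position. Per the submitters' processing notes, cutadapt, HISAT2 2.1.0 and GRCh38 were used; per the labels' protocols, libraries came from a stranded polyadenylated RNA kit. The counter, its annotation and its strand setting are not given in the sources used here.

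All 25 comparisons used the 2-sided quasi-likelihood test of edgeR 4.0.16 (R 4.3.3), robust and with TMM size factors, after its filter on low counts by group, and p-values were adjusted by Benjamini-Hochberg over every gene tested (threshold 0.05). Separate fits covered LNCaP (24 libraries, 15519 genes) and 42D (12 libraries, 15403 genes), and a joint fit of 16564 genes served comparisons between cell lines. Called means past that threshold. Levels are CPM of the TMM-scaled library size, with SD over 3 libraries, and exon lengths come from GENCODE v29. The edgeR script was tested on simulated data.

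The members, the gene lists and the rule for named genes were chosen with earlier results of these data known. The rule takes the 6 members, the genes within 500 kb of TMPRSS2, the closest followers of each member (mean of at least 5 CPM), and from each list at most the 2 called genes of largest change in each direction per R1881 or guide comparison (mean of at least 1 CPM). Replicate numbers were read as pairing libraries where every same-numbered pair correlated above 0.1 in its deviations from the group means, which held in 7 of 25 comparisons. A gene that the rule names is not reported here. No replicate pair agreed within counting error (chi-square per gene 2.73 to 26.6 over 36 pairs). As alternatives, each library was left out in turn, then the 2 of low mitochondrial share, and the fit was repeated with the replicate block, with only the groups compared, unfiltered, with RLE factors and in DESeq2 1.42.0.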

Additional observations from a re-analysis of the deposited data

Results flagged for a closer look

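The R1881 response of TMPRSS2 differed between 42D and LNCaP in NT3 by -1.58 on the log2 scale in a test of the difference itself (edgeR, adjusted p = 2.8e-07), with a 3.8-fold rise in 42D and an 11.1-fold rise in LNCaP, all R1881 libraries lying above the DMSO libraries in both. The guide line's effect on APP with R1881 also differed between the cell lines, by 0.39 (SE 0.085, adjusted p = 0.00785), with 0.26 in 42D and -0.12 (adjusted p = 0.408) in LNCaP. This call ended without 42D sgT33-5 replicate 2 or LNCaP NT3 replicate 2 with R1881.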

How the results depend on the processing

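No member changed sign under any alternative where it was called, and 13 of the 15 TMPRSS2 calls held under all alternatives run (both sgT33-5 comparisons in LNCaP were the exceptions), as did 2 of 3 ST14 calls, both PRSS8 calls, 2 of 6 SPINT2 calls, 0 of 3 HPN calls and 0 of 1 SPINT1 calls. TMPRSS2 had at least 503 counts in every library and the other members at least 831. Of 64 calls on 16 list genes, 46 held under every alternative. Where an alternative moved a call and no cause is stated, the cause was not tested.

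Without the filter on low counts, TMPRSS2 in LNCaP sgT33-5 with DMSO gave -0.65 (adjusted p = 0.0503), SPINT1 and SPINT2 with R1881 in 42D NT3 gave -0.13 (0.0566) and -0.12 (0.122), and these calls were lost. Calls gained there were HPN with R1881 in NT3 (-0.20), sgT33-5 (0.19), C2 (-0.21) and F2 (-0.20), in sgT33-5 (0.21) and C2 (0.25) against NT3 with R1881, in the response of sgT33-5 (0.39) and in 42D against LNCaP with R1881 (0.17); SPINT1 with R1881 in NT3 (-0.17) and in C2 against F2 with DMSO (-0.19); ST14 in F2 with DMSO (0.18); SPINT2 in F2 with R1881 (0.19); PRSS8 in 42D against LNCaP with R1881 (0.26); and TMPRSS2 in 42D sgT33-5 with R1881 (-0.22) and in the guide effect between cell lines with DMSO (0.55) and R1881 (0.40).

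DESeq2 lost HPN in C2 with DMSO (0.25), SPINT1 (-0.13) and SPINT2 (-0.12) with R1881 in 42D NT3, and gained TMPRSS2 in F2 with DMSO (-0.35), the C2 response (-0.82), 42D sgT33-5 with R1881 (-0.22) and the guide effect between cell lines with DMSO (0.55), and PRSS8 in F2 with DMSO (0.38) and 42D against LNCaP with R1881 (0.27). RLE size factors lost HPN in C2 with DMSO (0.25). A fit of only the groups compared lost HPN in F2 with R1881 (0.30) and SPINT2 with R1881 in 42D NT3 (-0.12), and gained TMPRSS2 (-0.35), ST14 (0.18) and PRSS8 (0.38) in F2 with DMSO, PRSS8 (-0.26) and SPINT1 (-0.18) in C2 against F2 with DMSO, HPN (0.16) and PRSS8 (0.25) in 42D against LNCaP with R1881, and TMPRSS2 in the guide effect with DMSO (0.55). Without the 2 libraries of low mitochondrial share TMPRSS2 gave -0.65 and -0.59 in sgT33-5.

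The replicate number as a block lost no member call. In the 7 comparisons of 25 where numbers paired the libraries it gained PRSS8 (-0.30) and SPINT1 (-0.17) with R1881 in F2, ST14 (0.18) and PRSS8 (0.39) in F2 with DMSO, PRSS8 (-0.26) and SPINT1 (-0.18) in C2 against F2 with DMSO, and TMPRSS2 (-0.23) in 42D sgT33-5 with R1881. In the others, not every same-numbered pair correlated above 0.1. Same-numbered pairs still had the higher median correlation in every comparison, at 0.263 against -0.0894 for R1881 in LNCaP NT3. In these other comparisons the block gained SPINT1 with R1881 in NT3 (-0.16), PRSS8 with R1881 in C2 (-0.25), the C2 response of TMPRSS2 (-0.83, adjusted p = 0.0286), PRSS8 (0.28) and SPINT2 (0.17) in F2 with R1881, PRSS8 (-0.22) and SPINT1 (-0.13) in C2 against F2 with R1881, and PRSS8 (0.25) in 42D against LNCaP with R1881. Blocking raised the genes called over all genes from 217 to 774 and from 472 to 1264 in sgT33-5 with DMSO and R1881, from 1936 to 2985, 879 to 1398 and 1611 to 2455 for R1881 in sgT33-5, C2 and F2, from 2587 to 3926 and 2087 to 3345 in F2, from 0 to 22, 107 to 326 and 0 to 17 for the responses of sgT33-5, C2 and F2, from 174 to 665, 79 to 331 and 19 to 196 in 42D sgT33-5 (DMSO, R1881 and response), and from 638 to 1033, 132 to 355 and 218 to 543 between cell lines (response, guide effect with DMSO and with R1881).

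Without the filter, genes called in the comparisons of 217, 472, 0, 107, 0, 174, 79, 19, 132 and 218 became 391, 743, 26, 191, 19, 438, 222, 168, 459 and 365. Fits of only the groups compared took 472 to 194, 2087 to 1178 and 218 to 140, leaving out the low mitochondrial libraries took 217 to 128, 472 to 188 and 132 to 74, and DESeq2 took 19 to 70 and 132 to 240.

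Leaving out 1 library at a time moved TMPRSS2 from -0.75 to -0.60 and from -0.74 to -0.51 in sgT33-5 (DMSO, R1881), from -0.45 to -0.30 and from -0.37 to -0.074 in F2 (called without NT3 DMSO replicate 3 and without F2 R1881 replicate 2), from -0.93 to -0.71 in the C2 response and from -0.29 to -0.19 in 42D sgT33-5 with R1881. It moved HPN from 0.20 to 0.30 and 0.15 to 0.34 in C2 and from 0.24 to 0.34 and 0.23 to 0.41 in F2, ST14 from 0.11 to 0.23 with R1881 in sgT33-5, from -0.21 to -0.19 and -0.24 to -0.10 in C2 against F2, and PRSS8 from 0.19 to 0.47 in F2 with R1881, -0.41 to -0.13 in C2 against F2 with R1881 and 0.15 to 0.37 in 42D against LNCaP with R1881. SPINT1 moved from -0.23 to -0.14 and -0.20 to -0.099 in C2 against F2 and from -0.17 to -0.089 with R1881 in 42D NT3. SPINT2 moved from 0.14 to 0.24 and 0.13 to 0.22 in F2, -0.26 to -0.19 and -0.23 to -0.17 in C2 against F2, and -0.15 to -0.09 with R1881 in 42D NT3.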

Other observations

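Of 28 genes listed within 500 kb of TMPRSS2 on chromosome 21, 9 passed the filter in at least one fit, and the long noncoding RNA PCSEAT (41580475 to 41582887, GRCh38) was called higher with R1881 in all 4 LNCaP lines. Summed over 3 libraries, PCSEAT had 14 counts with DMSO and 258 with R1881 in LNCaP NT3 (log2 4.19, SE 0.34, adjusted p = 3.94e-10 by edgeR), 4 and 168 in sgT33-5 (log2 5.30), and 12 and 184 in F2 (log2 3.95). In C2 it had 2 and 47 (log2 4.19, SE 0.699), a fold rise close to that of NT3 from lower counts. The R1881 sum was lowest in C2 among the LNCaP lines, and PCSEAT was lower there than in NT3 (log2 -2.74, SE 0.267, adjusted p = 1.53e-08). In 42D it had 0 counts with DMSO in both lines and 15 and 16 with R1881, so its response there was not tested. Its level in LNCaP NT3 with R1881, 5.65 ± 0.521 CPM, was far below the 848.8 CPM of TMPRSS2. RIPK4, a protein kinase gene further along (41739369 to 41767089), rose with R1881 in NT3 (log2 0.70, SE 0.106), sgT33-5 (0.56) and F2 (0.57), from 16.1 ± 0.267 to 26.2 ± 4.64 CPM in NT3. In C2 RIPK4 gave 0.23 and was not called (adjusted p = 0.278), and with R1881 it was lower there than in NT3 (log2 -0.39, adjusted p = 0.00589). The response of RIPK4 was smaller in 42D than in LNCaP NT3 by 0.55 (SE 0.147, adjusted p = 0.0229), a call that ended in a fit of only these groups and without any 1 of 6 of the 12 libraries (42D NT3 DMSO replicate 3 or R1881 replicate 2, and LNCaP NT3 DMSO replicate 1 or 3 or R1881 replicate 1 or 2). PCSEAT and RIPK4 were picked from the 9 after their values were seen. C2CD2, MX1, PRDM15 and ZNF295-AS1 also had calls with R1881, in 42D alone, and are not described further. BACE2, at 1.44 CPM in LNCaP NT3 with DMSO and also named after its values were seen, was lower than NT3 in C2 (log2 -1.27 with DMSO and -1.66 with R1881). It was lower in LNCaP sgT33-5 with R1881 as well (-0.82, adjusted p = 0.0481).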
